A study of Canis lupus familiaris with 8 samples.

Results

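miR-126, miR-221, miR-222 and miR-197 were followed in the serum of Doberman Pinschers as small RNAs that endothelial cells and platelets are known to carry. Every name on the array with one of these bases was taken, with or without an arm suffix, while names with a star were set apart. This gave 6 of the 1224 miRNA names, here called listings, 4 of them canine (cfa-miR-126, cfa-miR-221, cfa-miR-222 and cfa-miR-197) and 2 murine (mmu-miR-126-3p and mmu-miR-221). Canine and murine listings of the same base have probes of their own and were kept apart throughout.

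The study compared circulating miRNAs in dogs with dilated cardiomyopathy (DCM), a disease of weak and dilated heart muscle that is frequent in this breed, with those in healthy dogs. Serum of 4 Doberman Pinschers with DCM (arrays DoCM5 to DoCM8) and of 4 healthy Doberman Pinschers (arrays Con1 to Con4) was hybridized to 8 one-colour arrays of a single slide, 1 array per dog. All dogs were client-owned adults of a labelled age of 7 to 11 years. The ages that the study lists for the dogs with DCM reach outside this range, and it describes the dog of the array it left out as young. The blood clotted for at least 20 min and was spun for 5 min before the serum was frozen. According to the study the dogs with DCM received pimobendan, an ACE inhibitor and an antiarrhythmic drug, so that disease and treatment cannot be told apart. Slide row and group cannot be told apart either, as the rows held 1 group each.

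miRNAs are short RNAs that guide Argonaute proteins to complementary sites in messenger RNAs and thereby lower the output of the targeted genes. miR-126 is an abundant miRNA of endothelial cells, processed from an intron of EGFL7, and is known for repressing SPRED1 and PIK3R2, which restrain growth factor signalling. miR-221 and miR-222 share a seed and are made from a common primary transcript, with KIT and CDKN1B among their known targets. Platelets hold all of these miRNAs, miR-197 included, and release RNA when they are activated, as happens while blood clots for serum. In the dog gene table (assembly UU_Cfam_GSD_1.0), MIR126 lies within EGFL7, MIR221 and MIR222 are direct neighbours within the long noncoding RNA gene LOC111094885, and MIR197 lies between GNAT2 and GNAI3.

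The array carried 48960 features, that is spots, and 40 of them per name. Between 10817 and 14000 features per array were called well above background by the scanner software, and 13423 passed the filter, which required the call on 2 or more of the 4 dogs in either group. In all, 438 of 1224 names had a kept feature. Levels are given as glog2, a generalized log2 of the mean background-subtracted signal that was calibrated between arrays and that compresses differences of dim names. The study left out the array it named DoCM8. In the deposited files the array labelled DoCM5 stood apart, with a median correlation to the other arrays of 0.924 across detected names, against 0.968 for the array labelled DoCM8 and 0.957 to 0.964 for the other 6. DoCM5 also had the highest median signal. The study describes the array it left out as one of low correlation and raised signals, which among the deposited arrays is true of the one labelled DoCM5 and not of DoCM8. The labels and the numbering of the study thus seem to differ, and the set with DoCM8 and without DoCM5 is the likelier counterpart of the arrays that the study kept. Differences of the listings are therefore given over 7 arrays without DoCM8, which follows the label, over all 8 arrays, and over 7 arrays with DoCM8 and without DoCM5.

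All 6 listings passed the filter, but not all of their probes did. For mmu-miR-126-3p, mmu-miR-221, cfa-miR-222 and cfa-miR-197, all 40 features were kept. cfa-miR-126 kept 29 of 40 features. The brighter of its 2 probes was well above background in all 160 readings (20 features on 8 arrays), with mean signals from 34.2 on Con4 to 267 on DoCM5. The dimmer probe kept 9 of 20 features and was well above background in 49 of 160 readings, in 100% of its features on DoCM5, 65% on Con1 and 0% on DoCM7 and Con2. cfa-miR-221 has 3 probes and kept 26 of 40 features. Its brightest probe was well above background in all 104 readings, with signals of 43.2 on DoCM7 to 448 on DoCM5, its middle probe in 65 of 104 readings, and its dimmest in 15 of 112 readings, with 0 of 14 features kept. That dimmest probe was well above background in 92.9% of its features on DoCM5 and in at most 7.14% on any other array. The levels of cfa-miR-126 and cfa-miR-221 thus rested mostly on the brightest probe of each.

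**Figure D1:**
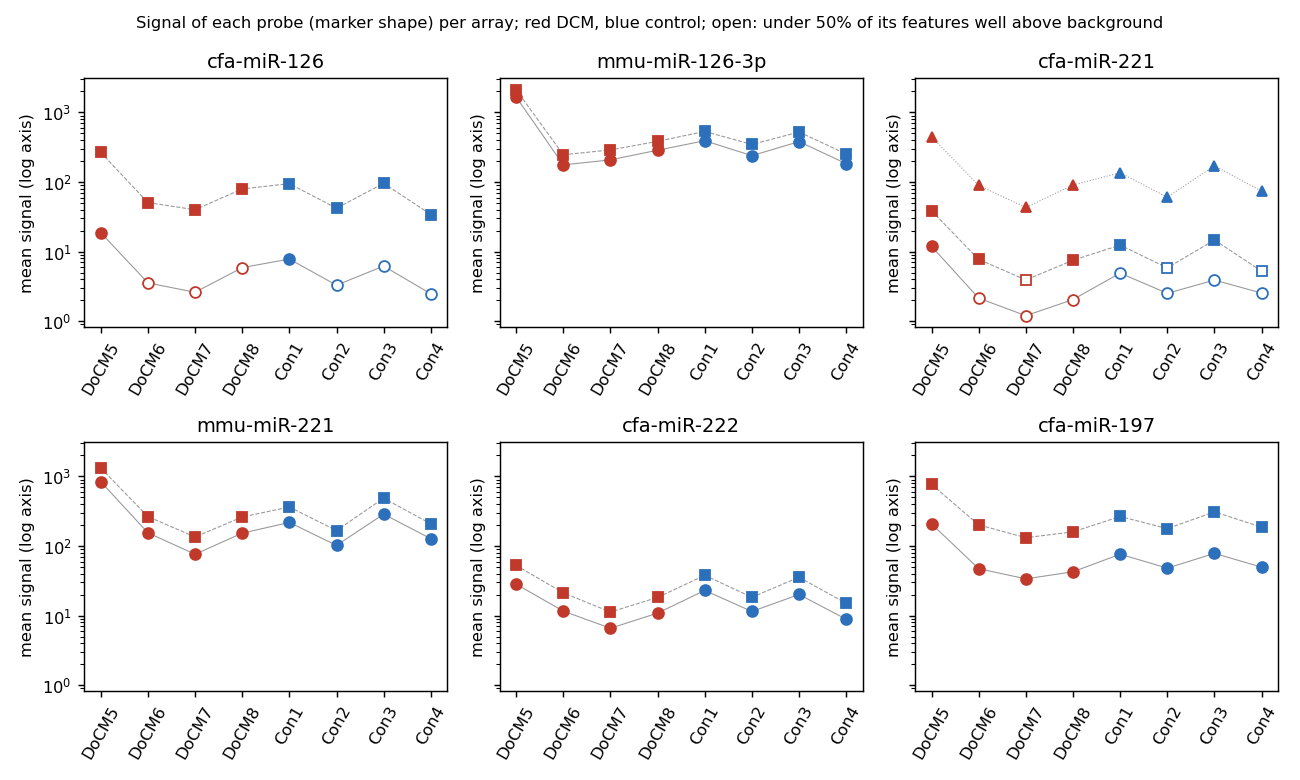
Mean background-subtracted signal (log axis) of each probe of the 6 listings on each array, with DCM arrays in red and control arrays in blue. Marker shapes stand for the probes of a listing, lines join the values of a probe, and open markers show arrays on which under 50% of the features of that probe were well above background; the probes of a listing run in parallel, and those of cfa-miR-126 and cfa-miR-221 that fall to background are the dimmer ones.

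Probes of one listing moved together over the 8 arrays. After normalization, Pearson's r between the kept probes of a listing lay between 0.960 for cfa-miR-126 and 0.998 for mmu-miR-126-3p. Without DoCM5 it lay between 0.855 for cfa-miR-221 and 0.995 for mmu-miR-126-3p. These correlations are a description, since probes of a listing share the array and its RNA. The passenger strands on the array, mmu-miR-221* and mmu-miR-222*, kept 0 of 40 features each, with at most 2.5% of their features well above background on any array.

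miR-126 was not shown to differ between the groups. The glog2 level of cfa-miR-126 was 6.35, 5.09, 5.51 and 6.02 on DoCM5 to DoCM8 and 5.76, 5.36, 5.34 and 5.01 on Con1 to Con4. DoCM5 and DoCM8 were the highest arrays, while DoCM6 lay near the bottom of the control range, so that the groups overlapped. DCM dogs averaged 5.65 ± 0.64 (SD, n = 3) and controls 5.37 ± 0.31 (SD, n = 4), a log2 difference of 0.29 (SE 0.38, 95% interval −0.54 to 1.11, exact permutation p = 0.514). Over all 8 arrays the log2 difference was 0.38 (SE 0.33, interval −0.34 to 1.09, exact permutation p = 0.286), and without DoCM5 it was 0.17 (SE 0.28). With the features marked as outliers kept, the difference over 8 arrays was 1.59 (limma), still short of the limits. The files do not say which arm of the hairpin the canine name stands for.

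The murine listing mmu-miR-126-3p read 9.68, 7.67, 8.71 and 8.61 on DoCM5 to DoCM8 and 8.59, 8.74, 8.24 and 8.28 on Con1 to Con4, in glog2. The DCM arrays held both the highest and the lowest value, and the control arrays lay between them. The DCM mean was 8.68 ± 1.0 (SD, n = 3) and the control mean 8.47 ± 0.24 (SD, n = 4). The log2 difference was 0.22 (SE 0.44, interval −0.75 to 1.19, exact permutation p = 0.686) over 7 arrays and 0.20 (SE 0.39) over 8. Without DoCM5 its sign turned, to −0.14 (SE 0.30).

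miR-221, which is known to repress KIT and the cell cycle inhibitor p27, had nearly equal group means only in the sets of arrays that held DoCM5. cfa-miR-221 read 6.75, 5.51, 5.22 and 5.68 on DoCM5 to DoCM8 and 5.80, 5.51, 5.93 and 5.76 on Con1 to Con4, in glog2. DoCM5 lay above every control array and DoCM7 below every control array. The DCM mean was 5.82 ± 0.81 (SD, n = 3) and the control mean 5.75 ± 0.18 (SD, n = 4), with a log2 difference of 0.074 (SE 0.40, interval −0.80 to 0.94, exact permutation p = 0.914). With features summarised by their median, this difference was 0.66. It was 0.038 (SE 0.34) over 8 arrays and −0.28 (SE 0.22, exact permutation p = 0.114) without DoCM5.

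mmu-miR-221 showed the same array pattern, with glog2 levels of 8.86, 7.66, 7.47 and 7.91 on DoCM5 to DoCM8 and 7.86, 7.61, 8.01 and 7.92 on Con1 to Con4. DoCM5 was again the highest and DoCM7 the lowest array. The DCM mean was 8.00 ± 0.75 (SD, n = 3) and the control mean 7.85 ± 0.17 (SD, n = 4). The log2 difference was 0.15 (SE 0.39, interval −0.70 to 0.99, exact permutation p = 0.8) over 7 arrays, 0.12 (SE 0.33) over 8, and −0.17 (SE 0.21) without DoCM5. The group differences of the canine and murine listings of miR-221 thus had the same sign in each set of arrays. The gap between the listings was not tested, as both were read on the same arrays.

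cfa-miR-222, the neighbour of miR-221, was the listing whose group difference was negative in each of the 3 sets of arrays, although it was 0.019 over 7 arrays with scaling to the 75th percentile of all names. It read 4.30, 3.85, 3.69 and 3.92 on DoCM5 to DoCM8 and 4.55, 4.25, 4.08 and 3.87 on Con1 to Con4, in glog2. Con1 and not DoCM5 was the highest array, DoCM7 was the lowest, and the groups overlapped through DoCM5 and Con4. The DCM mean was 3.95 ± 0.32 (SD, n = 3) and the control mean 4.19 ± 0.29 (SD, n = 4). The log2 difference was −0.24 (SE 0.33, interval −0.97 to 0.48, exact permutation p = 0.4) over 7 arrays, −0.25 (SE 0.28, exact permutation p = 0.286) over 8, and −0.37 (SE 0.23, exact permutation p = 0.114) without DoCM5. Its signal before normalization was 8.94 on DoCM7 and 40.5 on DoCM5, a range in which glog2 compresses differences, and 75% of its features were well above background on DoCM7 and 95% on Con4.

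cfa-miR-197, which platelets carry, had a group difference near 0 over 7 arrays. It read 7.90, 6.76, 7.10 and 6.88 on DoCM5 to DoCM8 and 7.19, 7.37, 7.04 and 7.39 on Con1 to Con4, in glog2. DoCM5 was above every control array, DoCM6 and DoCM8 were below every control array, and DoCM7 lay within the control range. The DCM mean was 7.26 ± 0.59 (SD, n = 3) and the control mean 7.25 ± 0.17 (SD, n = 4), with a log2 difference of 0.0083 (SE 0.35, interval −0.77 to 0.79, exact permutation p = 0.971). It was −0.085 (SE 0.31) over 8 arrays and −0.33 (SE 0.21, exact permutation p = 0.114) without DoCM5.

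**Figure D2:**
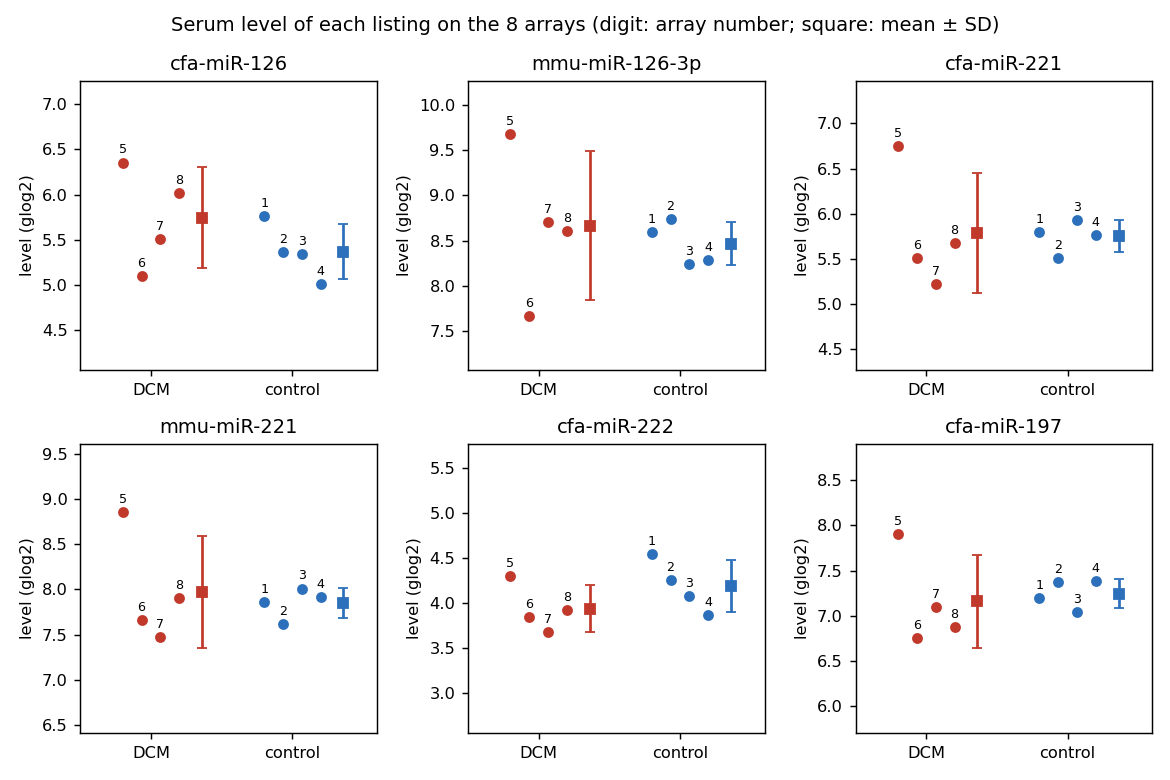
Level (glog2, mean signal calibrated between arrays) of each listing on the 8 arrays, with DCM in red and control in blue; digits give the array number, squares and bars the mean ± SD of all 4 arrays of a group, and each panel has its own axis of equal span. DoCM5 is the highest array in 5 of the 6 panels, and the groups overlap in all 6.

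DoCM5 set much of the spread within the DCM group. It was the highest of the 8 arrays in 5 of the 6 listings, while over all 438 detected names it was the highest in 30.8%. Before normalization its median log2 signal over detected names was also the highest, 5.09 against 3.68 to 4.85 on the others. Over the 7 arrays without DoCM8, the SD of mmu-miR-126-3p was 1.0 in DCM and 0.24 in controls, and with DoCM8 in place of DoCM5 the DCM value was 0.57. For cfa-miR-197 the same exchange took the DCM SD from 0.59 to 0.17, against 0.17 in controls. Against the 7 arrays without DoCM8, the set with DoCM8 in place of DoCM5 had the opposite sign for mmu-miR-126-3p, cfa-miR-221, mmu-miR-221 and cfa-miR-197, and the same sign for cfa-miR-126 and cfa-miR-222. With both DoCM5 and DoCM8 out, the difference of cfa-miR-126 was below 0 too, at −0.064. Over all 8 arrays cfa-miR-197 was already below 0. The part of RNA input, haemolysis or storage in the values of DoCM5 was not tested.

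None of the 6 listings passed a limit between the groups. The limits of the methods, an unadjusted p under 0.05 with a fold change over 1.5, were passed by 0 of 6 listings over 7 arrays, where 2.51% of the 438 names did (11 names, 6 higher and 5 lower in DCM). That count of names was 28 when DoCM5 and 31 when DoCM6 was left out as well. Over 8 arrays 0 of 6 passed beside 4.11% of all names, and without DoCM5 0 of 6 beside 5.94%. After Benjamini-Hochberg adjustment in limma, 0% of the names passed over 7 arrays and 0% over 8, with adjusted p values of the listings of 0.999 over 7 arrays and between 0.956 and 0.993 over 8. Without DoCM5 the adjusted limma p values of the listings lay between 0.802 and 0.922, and the smallest of all names was 0.269. Unadjusted, a limma p under 0.05 was reached by 11 names over 7 arrays, by 19 over 8 and by 30 without DoCM5, with no listing among them. Groups that did not overlap were found in 0 of 6 listings, against 4.34% of all names over 7 arrays and 2.74% over 8. An exact permutation test cannot fall below 0.0571 for 3 against 4 arrays and below 0.0286 for 4 against 4.

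The intervals depended on the arrays used. Over the 7 arrays without DoCM8 the 95% interval of the fold change ran from 0.687 to 2.16 for cfa-miR-126, from 0.593 to 2.29 for mmu-miR-126-3p and from 0.576 to 1.92 for cfa-miR-221. It ran from 0.616 to 1.99 for mmu-miR-221, from 0.512 to 1.40 for cfa-miR-222 and from 0.587 to 1.72 for cfa-miR-197. A change of 1.5 times lay inside the interval upwards for 5 listings and downwards for 5, since that of cfa-miR-222 ended below it and that of cfa-miR-126 began above it. Over 8 arrays it lay inside upwards for 4 and downwards for 5. Without DoCM5 the upper ends were 1.76, 1.45, 1.16, 1.24, 1.11 and 1.10 in the same order, so that it lay inside upwards for cfa-miR-126 alone, and downwards for the 5 others. The data do not show that the groups have equal levels.

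**Figure D3:**
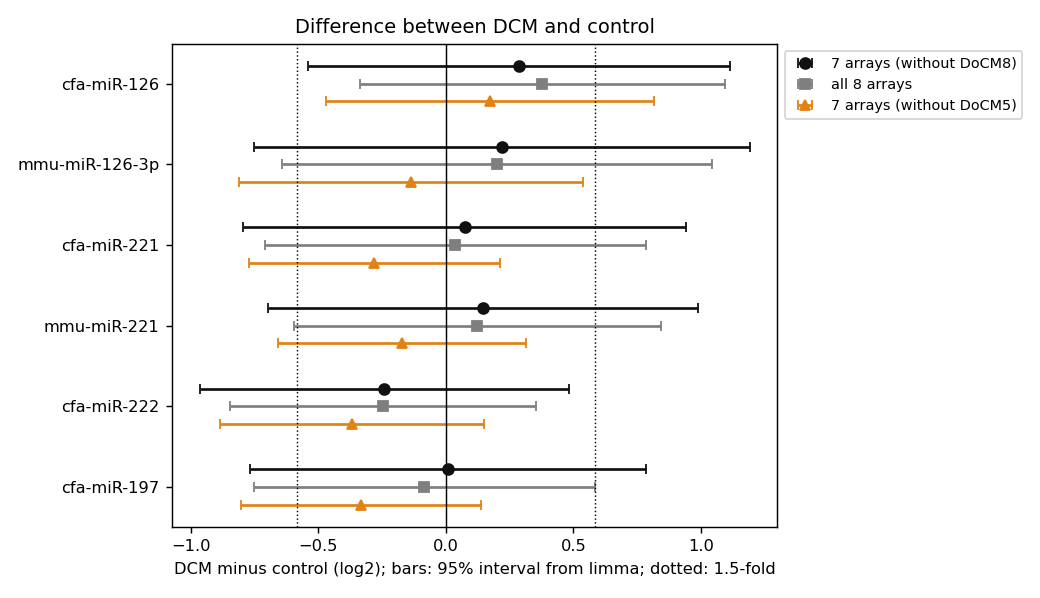
Difference between DCM and control (log2) of each listing with its 95% interval from limma, over the 7 arrays without DoCM8 (circles), all 8 arrays (squares) and the 7 arrays without DoCM5 (triangles); dotted lines mark a fold change of 1.5. All intervals include 0, and without DoCM5 only cfa-miR-126 has an estimate above 0.

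Each column of the slide held 1 array of each group, and the differences within columns varied in sign. DCM minus control ran from −0.26 to 1.01 on the log2 scale for cfa-miR-126 and from −1.07 to 1.08 for mmu-miR-126-3p, with DCM higher in 3 of 4 columns for both. It ran from −0.71 to 0.94 for cfa-miR-221, from −0.54 to 1.0 for mmu-miR-221 and from −0.61 to 0.71 for cfa-miR-197. For cfa-miR-222 it ran from −0.40 to 0.053, with DCM higher in 1 of 4 columns. With the column as a block over all 8 arrays, limma p values of the listings lay between 0.279 and 0.916.

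Probe by probe, the group differences of a listing agreed in sign over 7 arrays except for cfa-miR-197. The probes of cfa-miR-126 gave log2 differences of 0.37 (SE 0.44) and 0.27 (SE 0.40), and those of cfa-miR-222 gave −0.26 (SE 0.36) and −0.21 (SE 0.35). The probes of cfa-miR-197 gave −0.0044 (SE 0.37) and 0.064 (SE 0.35). The kept probes of cfa-miR-221 gave 0.28 (SE 0.47) and 0.062 (SE 0.42), those of mmu-miR-126-3p 0.27 and 0.23, and those of mmu-miR-221 0.16 and 0.17. For cfa-miR-126 and cfa-miR-221 the first value came from a dimmer probe that fell to background on some arrays. Such a value is no exact difference, and its sign adds little. No probe differed between the groups by more than its standard error over 7 arrays. Over 8 arrays both probes of cfa-miR-126 did, with 0.444 (SE 0.387) for the dimmer and 0.354 (SE 0.352) for the brighter.

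Co-variation over the 8 dogs was asked next, with 15 pairs of listings. Pearson's r was positive in all 15 pairs, between 0.430 and 0.990, with a median of 0.636. After Benjamini-Hochberg adjustment over the 15 pairs, 1 pair passed, the canine and murine listings of miR-221 (r = 0.990, exact permutation p = 0.0005, adjusted p = 0.0074). Spearman's rho of this pair was 0.905 (exact permutation p = 0.0046, adjusted p = 0.0685). Its r was 0.928 without the arrays farthest from the median, DoCM5 and DoCM7, and 0.960 without DoCM5 alone (exact permutation p = 0.004, raw). With the median in place of the mean over features, this r was 0.594 (exact permutation p = 0.0913) and no pair passed. Both listings measure one miRNA, or near copies of it, on the same arrays. With deviations from the group means in place of levels, 3 pairs passed, this one (r = 0.996), cfa-miR-126 with mmu-miR-126-3p (r = 0.835, permutation adjusted p = 0.0446) and mmu-miR-126-3p with cfa-miR-197 (r = 0.875, permutation adjusted p = 0.0446). Permutation is only approximate here, since deviations within a group depend on each other. Their spread also differed, with an SD of mmu-miR-126-3p over 8 arrays of 0.82 in DCM and 0.24 in controls. With levels, the number of pairs past the adjusted limit was 0 without DoCM5, without DoCM7 or without Con3, and 1 without any other single array. The r of the miR-221 listings was 0.991 both without DoCM7 and without Con3.

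The canine and murine listings of miR-126 had r = 0.820 (exact permutation p = 0.0151, adjusted p = 0.113) and rho = 0.714 (exact permutation p = 0.0576). Without DoCM5 and DoCM8, the arrays farthest from the median, r was 0.649, and without DoCM5 alone it was 0.610. With features kept that the scanner software had marked as outliers, r was 0.217 (exact permutation p = 0.322). DoCM5 was the highest array in both listings.

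miR-221 and miR-222, which share a primary transcript, had r = 0.532 in their canine listings (exact permutation p = 0.202, adjusted p = 0.303). Their rho was 0.738 (exact permutation p = 0.0458, adjusted p = 0.288). Without DoCM5 r was 0.520, and without DoCM5 and DoCM7 it was 0.218. It also moved with the processing, to 0.00061 with scaling to the 75th percentile of names detected on all arrays, 0.035 with the median over features and 0.926 without normalization. DoCM7 was the lowest array in both listings, while Con1 and Con2 were higher in cfa-miR-222 than their place in cfa-miR-221.

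Of the other pairs, those among miR-126, miR-221 and miR-197 changed most without DoCM5. mmu-miR-126-3p and cfa-miR-197 had r = 0.828 (exact permutation p = 0.0275, adjusted p = 0.137), which was 0.542 without DoCM5 and −0.034 without DoCM5 and DoCM6. cfa-miR-221 and cfa-miR-197 had r = 0.721 (exact permutation p = 0.102) and 0.096 without DoCM5. cfa-miR-126 and cfa-miR-221 had r = 0.626 (exact permutation p = 0.134) and 0.042 without DoCM5. For cfa-miR-126 and cfa-miR-197, r went from 0.451 to −0.24, and for mmu-miR-126-3p and mmu-miR-221 from 0.668 to −0.17. The pairs of cfa-miR-222 changed less. Its r went from 0.466 to 0.348 with cfa-miR-197, from 0.430 to 0.314 with mmu-miR-221, from 0.437 to 0.300 with cfa-miR-126 and from 0.431 to 0.287 with mmu-miR-126-3p, none past a limit.

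**Figure D4:**
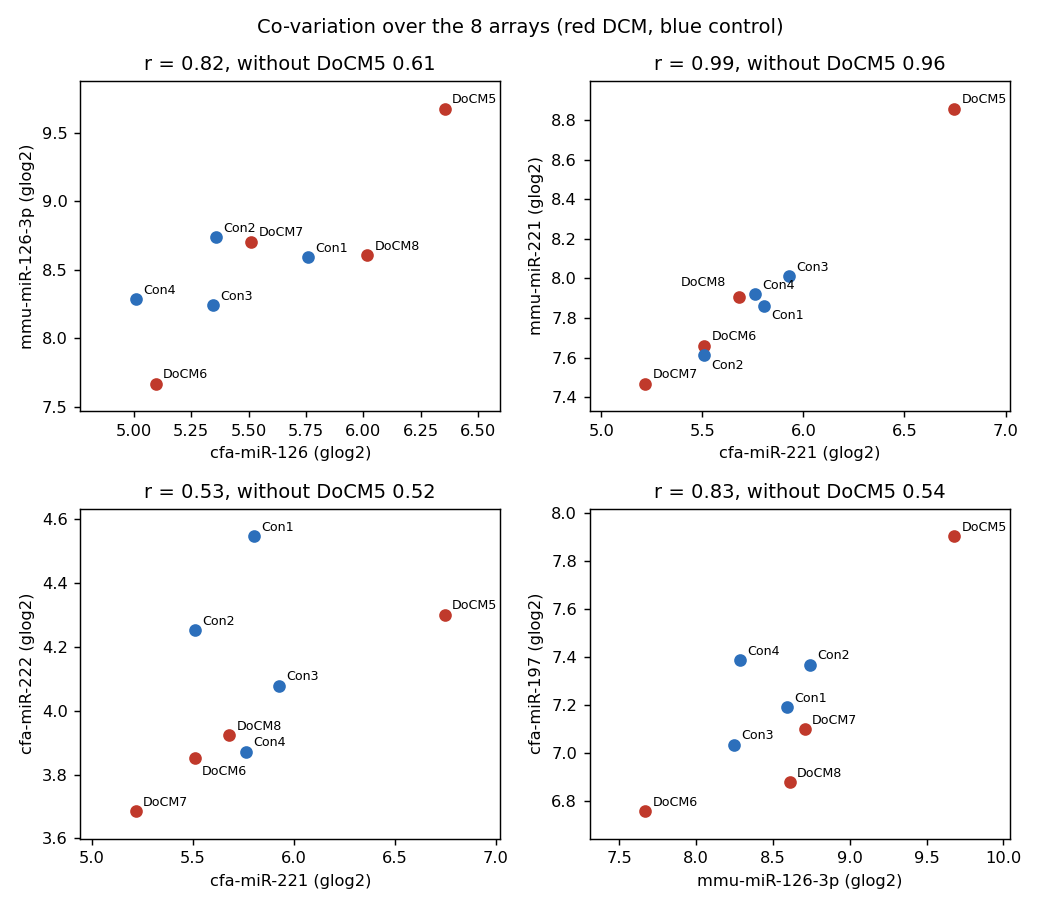
Levels (glog2) of 4 pairs of listings on the 8 arrays, with DCM in red, control in blue and array names beside the points; titles give Pearson's r over 8 arrays and without DoCM5. The miR-221 listings fall on a line with and without DoCM5, while in the pairs of mmu-miR-126-3p with cfa-miR-126 and with cfa-miR-197 DoCM5 lies far from the other arrays.

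The 6 pairs among the canine listings had a median r of 0.499, and 0.198 without DoCM5. Over all 95703 pairs of detected names the median r was −0.026 with all arrays and −0.021 without DoCM5. The share of all pairs with an r at or above that of a canine pair was 9.49% to 22.8%. Without DoCM5 this share was 15.9% to 65.7%. Before normalization the canine pairs had a median r of 0.913 and all pairs one of 0.437. All 15 pairs of listings had a lower r after normalization than before it. With 4 arrays each, no correlation was taken within a single group, and the deviations from the group means above pool both groups.

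**Figure D5:**
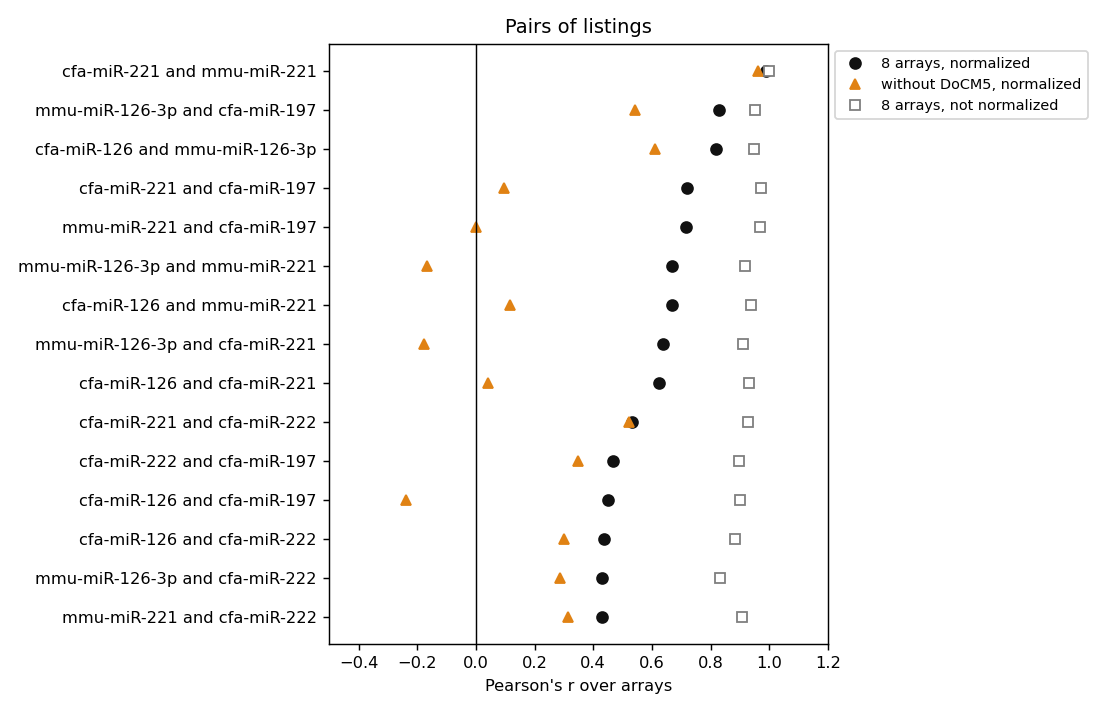
Pearson's r over arrays for the 15 pairs of listings, sorted by r over the 8 normalized arrays (circles), with r without DoCM5 (triangles) and r of values not normalized between arrays (open squares). The squares lie between 0.831 and 0.998, and the triangles spread from −0.24 to 0.96.

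For each canine listing the names with the most similar array pattern were sought among the 349 names with at least 50% of their features kept, leaving out the murine listing of the same miRNA. The measure was Pearson's r over 8 arrays, and as the highest values of many they carry no test. Nearest to cfa-miR-126 were cfa-miR-374a (r = 0.908), cfa-miR-26a (0.860) and cfa-miR-30e (0.843), and without DoCM5 these were 0.822, 0.774 and 0.744. Nearest to cfa-miR-221 were cfa-miR-365 (0.985), mmu-miR-505-3p (0.964) and mmu-miR-326 (0.956), and without DoCM5 these were 0.945, 0.883 and 0.860. Nearest to cfa-miR-222 were mmu-miR-30d (0.848), mmu-miR-1964-3p (0.824) and cfa-miR-99a (0.769), which without DoCM5 were 0.827, 0.935 and 0.820. Nearest to cfa-miR-197 were mmu-miR-30c (0.961), cfa-miR-331 (0.950) and mmu-miR-652 (0.944), which without DoCM5 were 0.898, 0.859 and 0.850. None of these 12 names reached a limma p under 0.05 over 7 arrays, where 11 of 438 names did. Their limma results in the other sets of arrays are not given here. The groups did not overlap over 8 arrays for mmu-miR-1964-3p, as for 2.74% of all names. Its glog2 level was 1.72 to 2.19 in DCM and 2.27 to 2.83 in controls.

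The wider platelet list held 12 miRNAs in 19 listings, of which 18 were detected, cfa-miR-28 being the exception. Besides the 6 listings above, the 12 others gave 0 past the limits over 7 arrays, beside 2.51% of all names, and 1 over 8, beside 4.11%. Without DoCM5 it was again 1, beside 5.94%. That 1 was cfa-miR-21, a miRNA found in many cell types, which was higher in DCM over 8 arrays by 0.68 on the log2 scale (SE 0.27, adjusted p = 0.956 in limma) and had a difference of 0.68 (SE 0.32) over 7 and 0.75 (SE 0.23) without DoCM5. The platelet and myeloid miRNA miR-223 had log2 differences of −0.35 in its canine and −0.43 in its murine listing over 7 arrays, and of −0.29 and −0.35 without DoCM5, none past the limits. The median log2 difference of the 18 detected listings was 0.060 over 7 arrays, −0.0082 over 8 and −0.17 without DoCM5, beside 0.0031, −0.00021 and 0.0034 for all names.

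The endothelial list held 15 miRNAs in 23 listings, of which 22 were detected, and 0 of them passed the limits over 7 arrays (2.51% of all names), over 8 (4.11%) or without DoCM5 (5.94%). Its 17 listings other than those of miR-126, miR-221 and miR-222 had log2 differences from −0.40 to 0.70 over 7 arrays, with a median of 0.048. The highest of them was cfa-miR-17 of the miR-17-92 cluster, at 0.70 (SE 0.44) over 7 arrays, 0.83 (SE 0.39) over 8 and 0.65 (SE 0.40) without DoCM5. The median over the 22 detected listings was 0.064 over 7 arrays, 0.095 over 8 and −0.0061 without DoCM5. Lists overlap, since miR-126, miR-221, miR-222 and miR-24 stand in both.

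Serum holds RNA of several cell types, and fewer cells or less RNA per cell cannot be told apart in it. The levels of each list were summed per array on the linear scale and are given as log2 of the sum, in which bright names weigh most. The platelet sum lay between 13.32 and 13.89 in DCM and between 13.68 and 13.96 in controls, with DoCM5 at 13.76. The endothelial sum lay between 13.52 and 14.26 in DCM, with DoCM5 the highest, and between 13.69 and 13.97 in controls. The erythrocyte sum lay between 16.80 and 17.32 in DCM, with DoCM5 the lowest, and between 16.93 and 17.27 in controls. The erythrocyte sum is nearly that of cfa-miR-451 alone, which had its lowest level on DoCM5 (16.49, against 16.75 to 17.18 on the other arrays). cfa-miR-16 (13.79), mmu-miR-92a (12.23) and cfa-miR-92a (11.01) instead had their highest level there. With the mean glog2 of a list, in which every name weighs the same, DoCM5 was the highest of the 8 arrays in all 3 of these lists. That mean was 7.73 on DoCM5 against 7.06 to 7.31 on the others for the platelet list, 8.03 against 7.27 to 7.74 for the endothelial list and 11.06 against 10.22 to 10.89 for the erythrocyte list. Which way DoCM5 stood in the platelet and erythrocyte lists thus depended on how names were weighted, while it was the highest array in the endothelial list on both measures.

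Of the other lists, single members passed the limits, beside 2.51% of all names over 7 arrays, 4.11% over 8 and 5.94% without DoCM5, while most did not. Of the 7 detected erythrocyte listings, mmu-miR-144 was higher in DCM over 7 arrays (log2 difference 0.81, SE 0.34) and over 8, where cfa-miR-144 passed too (0.76, SE 0.33). Without DoCM5 mmu-miR-144 passed (1.01, SE 0.31) and cfa-miR-144 did not (0.68, SE 0.34). The erythrocyte miRNA cfa-miR-451 had a difference of −0.016 over 7 arrays, and miR-92a one of −0.26 in its canine and −0.18 in its murine listing. Without DoCM5 these values were 0.21, −0.53 and −0.45, and none passed the limits in either set. Of the 11 detected leukocyte listings, mmu-miR-142-3p was higher in DCM over 7 arrays (1.23, SE 0.38), over 8 (1.28, SE 0.33) and without DoCM5 (1.12, SE 0.30), while the other 10 did not pass in any of these sets, with cfa-miR-146a at −0.0084 and mmu-miR-142-5p at 0.43 over 7 arrays. Of the 5 detected of 8 heart listings, mmu-miR-208a-5p was lower in DCM over 7 arrays (−1.19, SE 0.37) and not past the limits over 8 (−0.84, SE 0.40) or without DoCM5 (−0.61, SE 0.39). The other detected heart listings went both ways over 7 arrays and passed in none of these sets. cfa-miR-499 was at 0.61 (SE 0.38) and cfa-miR-1 at 0.44 (SE 0.65), while cfa-miR-133b was at −0.41 (SE 0.77) and cfa-miR-133c at −0.37 (SE 0.77). The list members that passed did so at an unadjusted p only, and the adjusted p of each was above 0.05. None of the 3 detected liver listings passed. The leukocyte sum lay between 12.69 and 13.61 in DCM and between 13.13 and 13.55 in controls, the heart sum between 7.07 and 7.65 and between 6.88 and 8.91, and the liver sum between 8.67 and 9.15 and between 8.68 and 9.62. Of the heart markers, cfa-miR-133a, cfa-miR-208a and cfa-miR-208b were not detected. The part of other cell types in the levels of the 6 listings was not tested.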

How the data were processed

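Total RNA of 8 serum samples was labelled with Cy3 and hybridized to one-colour custom miRNA arrays with canine and murine probes. The authors extracted signals with Agilent Feature Extraction 10.7.3.1, as the submitters' processing notes name it, and deposited an intensity per feature with the background subtracted and no normalization between arrays. The deposited table of the series held the same values. The other deposited columns used were flags (well above background, saturated, outlier, control type), and the saturation flag was set for 0 of 51124 features, controls included, on each array. Groups and array numbers were taken from the labels, and the array labelled DoCM8 was left out of the main comparison, following the label, though the array labelled DoCM5 is the likelier one that the study left out.

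Outlier features were dropped per array. Signals were averaged per name and passed through a reimplemented vsn model (an affine step for each array, then arsinh), fitted with a trimming quantile of 0.9, 5 slices of the intensity range and 7 rounds, giving log2-like values. Tests used limma 3.58.1 in R 4.3.3 over all 438 detected names. The scripts were tested on simulated data. Correlations used exact permutation over all pairings and, for single listings, exact two-sided permutation over all splits of the arrays.

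The members and the lists were chosen with earlier results of these data known. Named were every listing of the 4 miRNAs, the 3 names most similar to each canine listing, list members past the limits in either set of arrays and passenger strands. Some list members were named in addition after their values were seen, as were the individual probes. miR-486, whose listing used here is a star name alone, was left out of its list. The p values measure the spread between 1 array per dog, and the number of arrays limits the precision. Alternatives covered normalization, scaling, background correction, averaging, the filter, the arrays used, the slide column and each array left out in turn. No miRNA sequence was used here, and the array build (canFam2) differs from that of the gene table, so no coordinates are given.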

Additional observations from a re-analysis of the deposited data

Results flagged for a closer look

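Within groups of 4 arrays, a value was singled out when its gap to the nearest other value, as a share of the range, exceeded Dixon's 95% critical value. Chance gives such a value in about 1 in 20 groups, and 40 groups were examined. This share does not hold for percentages, where 3 values tied at 100 let any lower value pass, and the platelet and leukocyte lists share miR-223 and miR-150. cfa-miR-222 was well above background in 75% of its features on DoCM7 and in 95% on Con4, and in 100% on the other arrays of each group. The summed level of the platelet list was 13.96 on Con3, against 13.68 to 13.72 on the other controls, and that of the leukocyte list was 13.55 on Con3, against 13.13 to 13.20. The median correlation of DoCM5 with the other arrays was 0.924, against 0.962 to 0.968 on the other DCM arrays. The causes were not tested.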

How the results depend on the processing

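Of 252 differences, those of the 6 listings under all other settings together, none passed the limits, the smallest limma p being 0.0933. By replicate number, no paired analysis was possible because DCM arrays are numbered 5 to 8 and control arrays 1 to 4. Arrays were paired by the column of the slide alone, which changed no call of a listing. Directions were less stable. With DoCM5 out in place of DoCM8, the log2 difference turned to −0.14 for mmu-miR-126-3p, −0.28 for cfa-miR-221, −0.17 for mmu-miR-221 and −0.33 for cfa-miR-197. That of cfa-miR-222 turned to 0.019 with scaling to the 75th percentile of all names, a scaling that moved the median difference of all names to 0.11. That of cfa-miR-197 over 7 arrays turned to −0.020 with quantile normalization, −0.012 with the vsn model refitted on 7 arrays, −0.54 with the median over features, −0.0027 with at least 50% of features kept and −0.085 over all 8 arrays. Over 8 arrays it turned to 0.21 with the 75th percentile of all names, 0.041 without normalization and 0.077 without the filter. The cause of these turns was not tested.

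Leaving out 1 array at a time, the 7-array differences ran from −0.064 to 0.57 for cfa-miR-126, −0.28 to 0.73 for mmu-miR-126-3p, −0.39 to 0.38 for cfa-miR-221, −0.29 to 0.41 for mmu-miR-221, −0.42 to −0.11 for cfa-miR-222 and −0.32 to 0.26 for cfa-miR-197. Over the 8 arrays they ran from 0.17 to 0.59, −0.14 to 0.53, −0.28 to 0.23, −0.17 to 0.29, −0.37 to −0.13 and −0.33 to 0.049 in the same order. Under the other settings the sizes moved as well, from 0.17 to 0.61, −0.14 to 0.58, −0.28 to 0.66, −0.17 to 0.51, −0.37 to 0.019 and −0.54 to 0.37 over 7 arrays, in this order, and from 0.21 to 1.59 (outliers kept), 0.12 to 0.50, 0.024 to 0.32, 0.10 to 0.42, −0.31 to −0.029 and −0.47 to 0.21 over 8.

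The count of names past both limits over 7 arrays was 11, and 5 (0 higher, 5 lower) without normalization. It was 2 with normexp on the median signal combined with quantile normalization, and 12 with quantile normalization alone. The count was 41 without the filter, 7 with at least 50% of features kept, 18 over all 8 arrays and 26 without DoCM5 but with DoCM8. It ran from 9 to 31 when 1 array was left out. Over 8 arrays it was 18, and 9 (1 higher, 8 lower) without normalization and 52 without the filter, with a range from 11 (without DoCM8) to 30 (without DoCM6). Normexp on the median signal combined with quantile normalization gave 3 over 8 arrays (3 higher, 0 lower), and quantile normalization alone gave 15. Scaling moved the share of higher names over 7 arrays from 54.5% to 23.1% with the 75th percentile of names detected on all arrays, 36.4% with that of all names and 33.3% with quantile normalization. Over 8 arrays it went from 44.4% to 30.4% with the 75th percentile of names detected on all arrays. With that scaling 1 name passed the adjusted limit over 8 arrays, and it was none of the 6 listings.

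The number of pairs of listings past the adjusted limit was 1, and 15 without normalization, 0 with the median over features (r = 0.594 for the miR-221 listings) and 3 with deviations from the group means, and ran from 0 to 1 when 1 array was left out. With the median over features, r of cfa-miR-126 and cfa-miR-221 was −0.041. With outliers kept, r of cfa-miR-126 fell in all 5 of its pairs, to 0.217 with mmu-miR-126-3p, 0.150 with cfa-miR-221, 0.158 with mmu-miR-221, −0.085 with cfa-miR-222 and −0.30 with cfa-miR-197. With scaling to the 75th percentile of names detected on all arrays, r of cfa-miR-222 was −0.040 with cfa-miR-126 and −0.15 with mmu-miR-221, and 0.00061 with cfa-miR-221. Leaving out 1 array took r from −0.24 to 0.70 for cfa-miR-126 and cfa-miR-197, from −0.18 to 0.79 for mmu-miR-126-3p and cfa-miR-221 and from −0.17 to 0.79 for mmu-miR-126-3p and mmu-miR-221. Equal weights for the probes of a listing, chosen after seeing the data, kept the direction of every difference and pair.

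The filter decided how much of a listing was measured. Features kept ranged from 20 to 40 for cfa-miR-126 and from 14 to 39 for cfa-miR-221, depending on whether all 4 arrays of a group or a single array had to be well above background. With 3 or 4 dogs a group, intervals of the differences span over 1.5-fold.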
